A study of Bos taurus with 10 samples.

Results

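Transcripts of 6 genes of the mitochondrial genome were followed in cattle blood: COX1, COX2 and COX3 of respiratory complex IV, CYTB of complex III, ATP6 of complex V and ND1 of complex I. They were chosen by Ensembl identifier (ENSBTAG00000043561, ENSBTAG00000043556, ENSBTAG00000043560, ENSBTAG00000043550, ENSBTAG00000043584 and ENSBTAG00000043558, in that order) and not by a rule on their counts. Earlier results of these data were known when they were chosen. They are 6 of the 24616 genes in the tables. All 6 were abundant enough to be tested. Each of the 10 libraries was poly(A) RNA from the blood of 3 cattle (Bos taurus) combined into 1 pool. The 5 control pools were labelled as controls with no further treatment, and the 5 supplemented pools came from animals that received minerals meant to raise copper. Copper was recorded as 1 average per pool without a unit, from 23.42 to 95.61 in control pools and from 95.48 to 342.42 in supplemented pools. The sources used here do not give breed, sex, age, herd or the length of supplementation, and pooling hides the spread between the 3 animals of a pool. No label says whether pools came from separate herds or days, so each p-value reflects the variation among these 10 pools and may be partly technical.

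The mitochondrial genome is a small circular DNA, present in many copies per cell, that encodes a few core proteins of the respiratory chain, while nuclear genes encode most of its subunits. Complex I takes electrons from NADH, and complex III, which contains cytochrome b, passes electrons on to cytochrome c. Complex IV (cytochrome c oxidase) hands them to oxygen, and complex V uses the resulting proton gradient to make ATP. The COX1 and COX2 proteins hold the copper centres of complex IV, and mitochondrial messenger RNAs carry poly(A) tails, so a poly(A) library captures them. In blood they can come from white cells, platelets and immature red cells, since mature mammalian red cells have lost their mitochondria.

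Counts assigned to genes summed to between 24487010 and 32663198 per library, and 12932 genes had enough counts to be tested. The tables pair no identifier with a symbol, so markers of blood cell types and nuclear genes of the respiratory chain were not analysed here, and the blood label was not checked against them. In these mixed samples fewer cells of a type and less RNA per cell cannot be told apart. Counting error was small: the 95% Wilson interval of a summed share of the 6 genes was at most 0.0077 percentage points to either side, and it covers counting error only.

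Together the 6 genes took 2.83 ± 0.30% of the counts in control pools and 3.1 ± 0.86% in pools from supplemented animals (SD, n = 5 each). Control pools 1 to 5 had 2.96%, 2.79%, 2.88%, 2.36% and 3.16%, and supplemented pools 1 to 5 had 3.37%, 2.77%, 3.05%, 4.32% and 1.97%. The highest and the lowest pool of the series were thus both supplemented, and the control pools lay between them. Of the supplemented pools, 2 lay above all controls, 2 within their range and 1 below all of them. The difference of 0.27 percentage points between the group means was smaller than the SD of either group. Without supplemented pool 4 it was -0.04, and without supplemented pool 5 it was 0.55.

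COX1, the catalytic core of cytochrome c oxidase that holds the copper B centre beside a haem, had the most reads of the 6 genes in all 10 pools. It ranked between 1 and 3 by count among all genes in each pool. Control pools 1 to 5 had 1.13%, 0.989%, 1.09%, 0.871% and 1.28% of counts on COX1, and supplemented pools 1 to 5 had 1.34%, 1.11%, 1.17%, 1.37% and 0.707%. Supplemented pools 1 and 4 lay above every control and supplemented pool 5 below every control. The group means were 1.07 ± 0.15% and 1.14 ± 0.27% (SD, n = 5 each).

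COX2, the subunit that takes electrons from cytochrome c through the copper A centre, had the fewest reads of the 6 genes in every pool. Its shares were 0.217%, 0.176%, 0.177%, 0.181% and 0.180% in control pools 1 to 5, against 0.193%, 0.164%, 0.176%, 0.234% and 0.143% in supplemented pools 1 to 5. Control pool 1 stood above the other 4 controls, which lay between 0.176% and 0.181%. Supplemented pools 2 and 5 lay below all controls and pool 4 above all of them. Supplemented pool 3 (0.1756%) could not be told apart from control pool 2 (0.1758%), the lowest control. Their Wilson intervals, 0.1741 to 0.1772% and 0.1742 to 0.1774%, overlapped. The means were 0.186 ± 0.017% and 0.182 ± 0.034% (SD, n = 5 each).

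COX3, the remaining mitochondrially encoded subunit of complex IV, binds no copper and came second by read number in all 10 pools. It took 0.665%, 0.705%, 0.660%, 0.530% and 0.673% of counts in control pools 1 to 5 and 0.758%, 0.596%, 0.687%, 1.12% and 0.469% in supplemented pools 1 to 5. Control pool 4 was the low value among controls, and the supplemented pools spread to both sides of the controls. The means were 0.647 ± 0.068% and 0.726 ± 0.25% (SD, n = 5 each).

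CYTB, cytochrome b of complex III, had 0.312%, 0.318%, 0.349%, 0.253% and 0.386% of counts in control pools 1 to 5. In supplemented pools 1 to 5 it had 0.412%, 0.330%, 0.387%, 0.583% and 0.224%. Of these, 3 lay above all controls and 1 below all of them, and the means were 0.324 ± 0.049% and 0.387 ± 0.13% (SD, n = 5 each).

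ATP6, the membrane subunit of ATP synthase through which protons pass, had 0.331%, 0.302%, 0.294%, 0.267% and 0.335% in control pools 1 to 5. Its supplemented pools had 0.355%, 0.305%, 0.329%, 0.564% and 0.226%. For ND1, a membrane subunit of complex I, the control pools had 0.310%, 0.301%, 0.304%, 0.259% and 0.302%, and the supplemented pools 0.315%, 0.264%, 0.302%, 0.448% and 0.206%. In both genes supplemented pool 4 was the highest and pool 5 the lowest of all 10. The group means were 0.306 ± 0.028% and 0.356 ± 0.13% for ATP6 and 0.295 ± 0.021% and 0.307 ± 0.090% for ND1 (SD, n = 5 each).

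**Figure D1:**
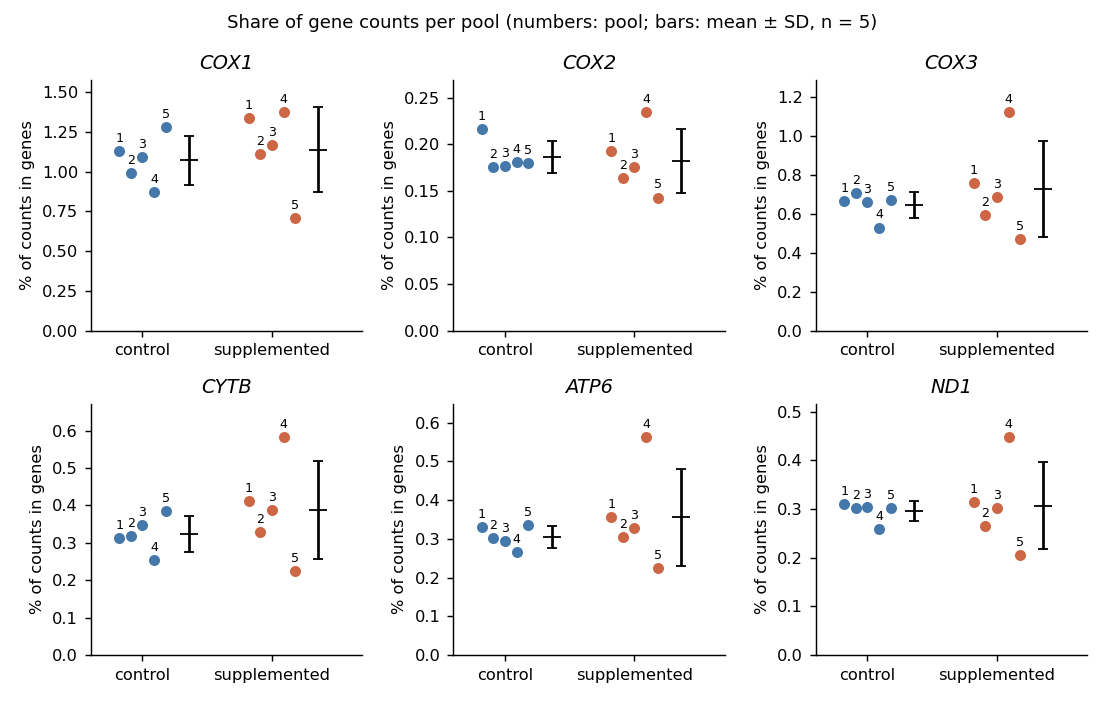
Share of counts in genes (percent, vertical axes from 0) for each of the 6 genes in 5 control (blue) and 5 supplemented (orange) pools, numbered by pool, with the mean and SD beside each group. In every panel supplemented pool 4 is the highest of the 10 pools, supplemented pool 5 is the lowest, and the groups overlap.

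CYTB came next by read number in 7 pools, ahead of ATP6 and ND1, whose order changed between pools. ATP6 took that place in 3 pools, and ND1 came just before COX2 in 8. These places are counts of reads and not levels per gene length, because gene lengths of the files' genome build were not used here. COX1 gave 37.8 ± 1.9% of the reads on the 6 genes in the control group and 37.1 ± 3.4% in the supplemented group, and COX2 gave 6.62 ± 0.83% and 6.01 ± 0.71% (SD, n = 5 each).

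The first comparison asked whether the level of these transcripts differed between supplemented and control blood. None of the 6 genes passed an adjusted p of 0.05 in edgeR's quasi-likelihood test, where 0% of the 12932 genes passed. At an unadjusted p of 0.05 there were 0 of the 6 genes and 255 of all genes (1.97%). At the adjusted threshold DESeq2 called 1 gene (0.00774%) and limma's voom with sample quality weights 0, none of them among the 6. The fitted log2 fold changes of supplemented over control pools were 0.08 ± 0.20 (SE) for COX1, -0.03 ± 0.17 for COX2 and 0.17 ± 0.24 for COX3. Outside complex IV they were 0.27 ± 0.24 for CYTB, 0.23 ± 0.23 for ATP6 and 0.06 ± 0.21 for ND1 (SE, n = 5 pools a group). The interval of every estimate included 0, and each adjusted p was 1.00 (edgeR). The median of the 6 was 0.13, beside -0.01 over all genes tested.

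The intervals show what the comparison could resolve. On the fold scale, the unadjusted 95% interval ran from 0.782 to 1.44 for COX1, from 0.764 to 1.25 for COX2 and from 0.793 to 1.6 for COX3. It ran from 0.841 to 1.72 for CYTB, from 0.833 to 1.65 for ATP6 and from 0.765 to 1.42 for ND1. A change of 2-fold in either direction thus lay outside all 6 intervals, whereas an increase of 1.2-fold lay inside each of them. No gene of the 6 had groups that did not overlap in scaled level, against 0.278% of the genes tested. Leaving out supplemented pool 4 moved the estimates of COX1, COX3, ATP6 and ND1 below 0, to -0.03, -0.08, -0.05 and -0.16. Without that pool the estimate was 0.03 for CYTB and -0.18 for COX2, again with every adjusted p at 1.00 (edgeR). Leaving out supplemented pool 5 in its place put all 6 estimates above 0, from 0.05 ± 0.17 (SE) for COX2 to 0.41 ± 0.21 for CYTB. None of the 6 passed the adjusted threshold there (edgeR).

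**Figure D2:**
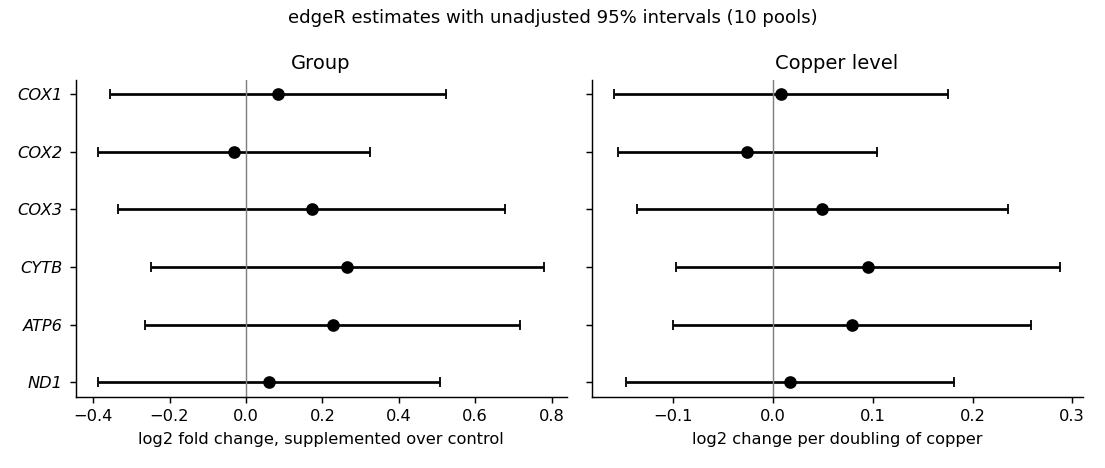
Fitted log2 fold change of supplemented over control pools (left) and log2 change per doubling of copper (right) for the 6 genes, as points with unadjusted 95% intervals from edgeR over 10 pools. All 12 intervals include 0.

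The second comparison set the transcripts against the copper level itself. None of the 6 had a slope on log2 copper that passed an adjusted p of 0.05 in edgeR, where 0% of all genes passed. At an unadjusted p of 0.05 there were again 0 of the 6, and 344 of all genes (2.66%). DESeq2 called 7 genes (0.0541%) at the adjusted threshold and voom with sample quality weights 0, with none of the 6 genes among them. The slope per doubling of copper was 0.0081 ± 0.078 log2 units (SE) for COX1, -0.03 ± 0.06 for COX2 and 0.05 ± 0.09 for COX3. It was 0.10 ± 0.09 for CYTB, 0.08 ± 0.08 for ATP6 and 0.02 ± 0.08 for ND1, with adjusted p-values of 1.00 throughout (edgeR). The median slope of the 6 was 0.03, beside -0.0010 over all genes. Intervals on the fold scale reached at most 1.22 per doubling (CYTB) and at the lowest 0.895 (COX1).

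Pools with nearly the same copper level were then set side by side. Control pools 1 and 2, at copper of 23.42 and 24.58, had summed shares of 2.96% and 2.79%. Control pools 3 and 4, at 56.18 and 63.37, had 2.88% and 2.36%, a ratio of 1.22. At the single level where the groups met, supplemented pool 1 (95.48) and control pool 5 (95.61) had 3.37% and 3.16%, a ratio of 1.07. At 183.61 and 185.99, supplemented pools 3 and 2 had 3.05% and 2.77%. The pair with the most copper, supplemented pools 5 (330.75) and 4 (342.42), had 1.97% and 4.32%, a ratio of 2.19, the widest of the 5 neighbouring pairs. Within that last pair the ratio of shares was 1.64 for COX2, 1.94 for COX1, 2.18 for ND1, 2.39 for COX3, 2.5 for ATP6 and 2.61 for CYTB.

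**Figure D3:**
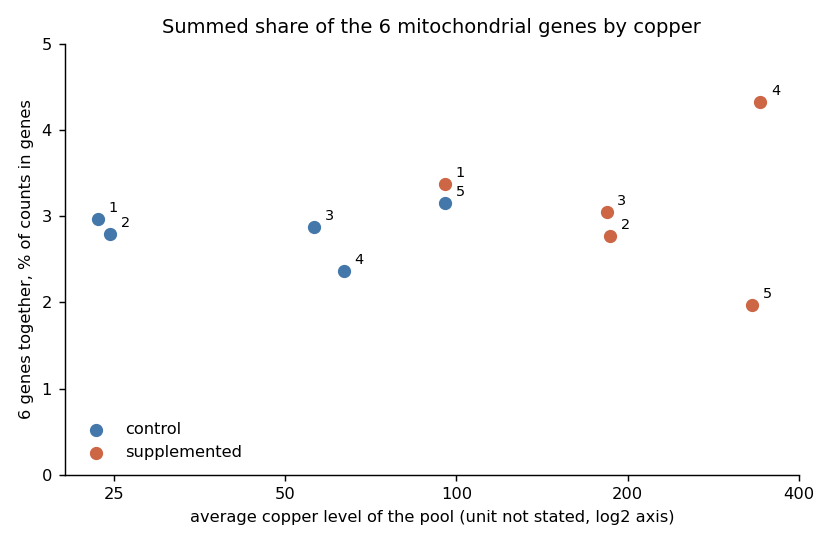
Summed share of counts of the 6 genes (percent, vertical axis from 0) against the average copper level of each pool (log2 axis, unit not stated), with control pools in blue and supplemented pools in orange, numbered by pool. The 8 pools with copper up to 185.99 lie between 2.36% and 3.37%, and the 2 pools with the most copper are the lowest (1.97%) and the highest (4.32%).

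Without both of these pools, a choice made after seeing the data, the 3 remaining supplemented pools had 3.06 ± 0.30% (SD, n = 3) and the 5 controls 2.83 ± 0.30%. The slopes of COX3, ATP6 and ND1 were then -0.05, -0.02 and -0.07, that of COX2 was -0.10, and those of COX1 and CYTB were 0.02 and 0.05. No slope of the 6 passed (edgeR, smallest adjusted p 0.877, for COX2), and 0 of all genes tested passed, with 649 under an unadjusted p of 0.05. Without supplemented pool 4 alone all 6 slopes were below 0, from -0.04 ± 0.08 (SE) for CYTB to -0.12 ± 0.05 for COX2. Without supplemented pool 5 alone all 6 were above 0, from 0.01 ± 0.06 (SE) for COX2 to 0.17 ± 0.08 for CYTB. None of the 6 passed the adjusted threshold in either case (edgeR). Beside their SE, the COX2 slope without pool 4 and the CYTB slope without pool 5 were larger than any slope with all pools kept. Under an unadjusted p of 0.05 (edgeR) were 320 of all genes without pool 4 and 337 without pool 5. Unadjusted p-values of the 6 in these runs are not given here.

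Library measures of these 2 pools are given beside their shares, and their part in the result was not tested. Unmapped reads were 12.9% of all reads in supplemented pool 4 and 11.3% in pool 5, and reads in no gene were 22.5% and 20.9%, all within the range of the controls. Reads that overlapped more than 1 gene made up 0.494% in pool 4 and 0.297% in pool 5, the highest and the lowest of the 10 pools. These can include reads in overlaps between mitochondrial genes, such as those of ATP6 described below. This measure may therefore not be separate from the shares of the 6 genes. Counts in genes were 26793987 and 26792044, so that depth was nearly equal.

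With group and log2 copper in the same model, the slope within the groups ran from -0.05 ± 0.14 (SE) for COX1 to 0.04 ± 0.17 for CYTB. None of the 6 passed (edgeR, adjusted p of 1.00 each), beside 0% of all genes, and at an unadjusted p of 0.05 there were 0 of the 6 and 205 of all genes (1.59%). The group term at a given copper level lay between 0.07 ± 0.40 (SE) for ND1 and 0.20 ± 0.37 for COX1. Its median SE over the 6 genes was 0.42, against 0.22 without copper in the model.

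The 6 transcripts moved largely together from pool to pool. On the scale of log2 CPM (counts scaled by TMM to library size), all 6 were above their own means in 3 pools and all below in 3 others. In supplemented pool 4 they were 0.45 to 0.92 above their means, in supplemented pool 5 they were 0.35 to 0.62 below, and in control pool 4 they were 0.14 to 0.57 below. These deviations share a library and its scaling factor, which was 0.923 in supplemented pool 4, 0.998 in pool 5 and 1.09 in control pool 4. COX2 moved least: its SD over the pools of a group was 0.27 log2 units, beside 0.27 for the median gene, 0.34 for COX1, 0.36 for ND1, 0.40 for ATP6, 0.41 for COX3 and 0.44 for CYTB.

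**Figure D4:**
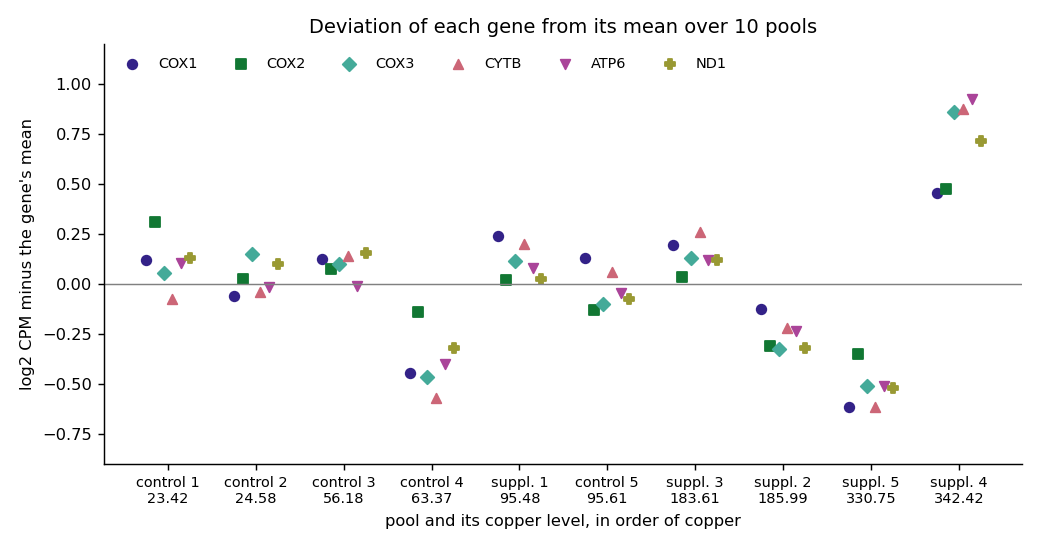
Deviation of each gene's log2 CPM from its mean over the 10 pools (vertical axis), with pools in order of their copper level, which is written under each pool, and 1 symbol per gene. The 6 genes cluster within each pool, and supplemented pools 4 and 5 at the right end deviate in opposite directions.

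Ratios between the genes do not depend on depth or scaling, and each gene was set against CYTB in the same pool. COX1 had 3.62, 3.12, 3.13, 3.44 and 3.32 reads for each CYTB read in control pools 1 to 5, and 3.25, 3.36, 3.02, 2.35 and 3.16 in supplemented pools 1 to 5. Supplemented pool 4, with the most reads on the 6 genes, had the lowest COX1 ratio of the 10 pools. For COX2 the ratios were 0.694, 0.554, 0.507, 0.715 and 0.465 in control pools and 0.468, 0.497, 0.454, 0.402 and 0.639 in supplemented pools, which overlapped. For ND1 they were 0.993, 0.948, 0.871, 1.02 and 0.783 in control pools, against 0.763, 0.801, 0.780, 0.768 and 0.920 in supplemented pools.

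The mean log2 ratio to CYTB was lower in supplemented than in control pools by 0.14 for COX1 (1.59 against 1.73), by 0.25 for COX2 (-1.04 against -0.79) and by 0.19 for ND1 (-0.31 against -0.12). The SD of these log2 ratios within a group was 0.09 to 0.21 for COX1, 0.25 to 0.27 for COX2 and 0.11 to 0.16 for ND1. For COX3 the means were 1.01 in controls and 0.91 in supplemented pools, and for ATP6 they were -0.07 and -0.12. Without supplemented pool 4 the difference for COX1 was -0.06 in place of -0.14. For COX3 it was -0.06 without control pool 2 and -0.14 without control pool 5, in place of -0.09. For ATP6 it was -0.05 and moved by over 1.5 times when 1 of control pools 1, 3, 4 and 5 or supplemented pools 1, 3 and 5 was left out, between -0.0078 (without control pool 1) and -0.09 (without control pool 3). CYTB had the highest group estimate of the 6 genes, a log2 fold change of 0.27 ± 0.24 (SE, edgeR). Setting the others against it therefore lowers every mean ratio in supplemented pools. The 5 lower means share this divisor and are not 5 separate results. All 5 ratios overlapped between the groups, and they were not tested. Between the copper-binding subunits, COX1 had 5.79 ± 0.90 reads per COX2 read in the control group and 6.24 ± 0.83 in the supplemented group (SD, n = 5 each), and all 5 supplemented pools lay within the range of the controls. Against COX3, which binds no copper, COX1 had 1.66 ± 0.18 and 1.61 ± 0.25 reads per COX3 read (SD, n = 5 each). Of the supplemented pools, 4 lay within the control range of 1.40 to 1.90, and pool 4 (1.22) lay below it.

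**Figure D5:**
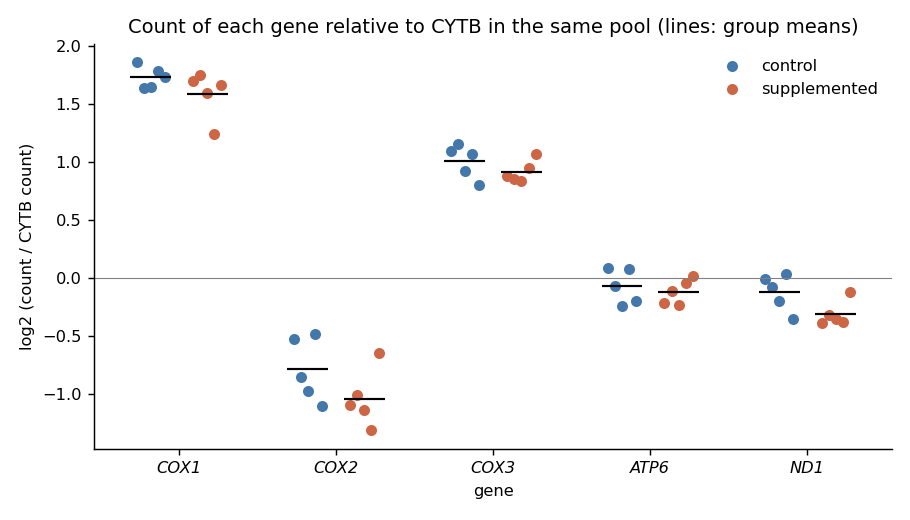
Log2 ratio of each gene's count to the CYTB count of the same pool (vertical axis) in 5 control (blue) and 5 supplemented (orange) pools, with lines at the group means. The groups overlap for all 5 genes, and the lowest COX1 value, a ratio of 2.35, is supplemented pool 4.

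Reads on the strand opposite to the genes were few. They made up 0.451 ± 0.12% of the reads on either strand of the 6 genes in control pools and 0.357 ± 0.078% in supplemented pools (SD, n = 5 each). Over all genes of a library the same share was between 2.13% and 2.88%. Among the 6 genes CYTB had the highest opposite-strand share, at 0.818 ± 0.20% in controls and 0.631 ± 0.14% in supplemented pools, and COX1 the lowest mean, at 0.345 ± 0.095% and 0.274 ± 0.066%. Supplemented pool 4, where the 6 genes had the largest share of counts, had the lowest opposite-strand share of all pools, 0.244%.

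COX1 was sensitive to how strand was treated. Its count on the sense strand was 1.06 to 1.09 times its count without regard to strand in the 10 pools, while for the other 5 genes this ratio was between 0.992 and 0.998. In the RefSeq table of another bovine assembly (ARS-UCD2.0), COX1 shares bases with a neighbouring transfer RNA gene, and ATP6 overlaps ATP8 at one end and COX3 at the other. Reads in such overlaps can be left out as ambiguous. For COX1 the count without regard to strand was the lower one, so reads left out there were kept in the stranded count used here. ATP6 and COX3 had no such excess, and their counts are uncertain to the extent of their overlaps. From counts without regard to strand, the group estimate of COX1 was 0.09 ± 0.20 (SE) and its slope on log2 copper 0.01 ± 0.08 (SE).

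Of the genes outside the 6, those with the most similar pattern were taken by Pearson's r to the mean log2 CPM of the 6 over the 10 pools, as a description. ENSBTAG00000043577 had r = 0.967, with 1572 to 4517 CPM over the pools, and its highest and lowest pools were also supplemented pools 4 and 5. Its log2 fold change between the groups was 0.26 ± 0.24 (SE, edgeR adjusted p = 1.00). ENSBTAG00000025148 had r = 0.942 and the same highest and lowest pools, but its level only ranged from 23.3 to 28.2 CPM. Both were picked as the highest r among all genes tested, so their r is large by selection. The next gene had r = 0.936. The pools share their scaling factors among all genes, and the files give neither identifier a symbol.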

How the data were processed

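The authors deposited raw read counts for each Ensembl gene, as 1 unstranded column and 1 column per strand. STAR 2.5.1b, HTSeq and the genome UMD3.1 were used, per the submitters' processing notes; the sources used here do not say what each tool did, nor name the annotation release or read filters. The labels' protocols describe stranded poly(A) libraries. The fourth column, which held 97.6% of the stranded counts, was used. The 4 rows that name no gene (36.1 to 44.2% of a library's reads) were left out of library sizes and tests, and multimapping reads, which can include those shared with nuclear copies of mitochondrial DNA, have a row of their own.

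The 6 genes, the lists and the tests were chosen with earlier results of these data known. The gene symbols come with the choice of identifiers: the reference table used here (37063 genes) holds 0 of the 24616 identifiers, so 15 lists of other mitochondrial genes, nuclear respiratory genes, copper delivery genes and blood cell markers were not analysed here, nor were sequences or gene lengths. The 6 genes stand in the files in the order in which that table places those symbols on the mitochondrial genome.

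Genes were filtered with edgeR's filterByExpr (minimum count 10), scaled by TMM, and fitted on group and on log2 copper with the quasi-likelihood test of edgeR 4.0.16 (R 4.3.3), with Benjamini-Hochberg adjustment over 12932 genes. Standard errors come from the coefficient and the F statistic. Log2 CPM used a prior count of 2. Alternatives used DESeq2 1.42.0 and limma 3.58.1 voom with sample quality weights. Others used different scalings, no filter, counts without regard to strand, a replicate block, covariates and leaving out pools. Named outside the 6 were the 2 genes most correlated with their mean. On simulated counts (12817 genes tested, 200 changed) the group test found 28.8% of the 1.5-fold changes, 72.7% of the 2-fold changes and 100% of the 4-fold changes, and called 8 unchanged genes. The copper test found 94.0%, 100% and 100% of changes of those sizes per doubling of copper, and called 4 unchanged genes. The changed genes were drawn at random. All of the 6 but COX2 varied more within groups than the median gene, so these rates are not those of the 6. Pools within a group differed beyond sampling noise (chi-square per degree of freedom at least 21.4).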

Additional observations from a re-analysis of the deposited data

Results flagged for a closer look

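Among 36 groups of 5 values examined (shares and opposite-strand shares of the 6 genes, ratios of the other 5 to CYTB, and the summed share, each by group), 4 held a pool far from the other 4, where chance sets apart about 5% of groups. For COX2, control pool 1 had 0.217% of counts, above the 0.176 to 0.181% of the other controls. For COX3, control pool 4 had 0.530%, below 0.660 to 0.705%. For ND1, the same pool had 0.259%, below 0.301 to 0.310%. The ratio of ND1 to CYTB was 0.920 in supplemented pool 5, above 0.763 to 0.801 in the other supplemented pools.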

How the results depend on the processing

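For all genes together, DESeq2's Wald test called 1 gene between the groups and 7 for log2 copper, against 0 and 0 in edgeR; the cause was not tested. With 1 pool removed edgeR called 0 genes between the groups and 0 to 1 for copper (1 without control pool 2). None of the 6 genes passed under any alternative run. Their estimates changed sign in 14 of 120 alternatives for the group and 21 of 126 for copper. With voom and sample quality weights, the group estimates were -0.0048 for COX1 and -0.082 for ND1. The slopes in that setting were -0.046 for COX1, -0.026 for COX3, -0.0048 for ATP6 and -0.048 for ND1. With the other term as covariate, the group estimate of COX2 was 0.089, and the slopes of COX1, COX3 and ND1 were -0.054, -0.0091 and -0.0060. With untransformed copper the slope of COX2 was 0.0071. Without both pools of highest copper, the group estimate of ND1 was -0.055 and the slopes of COX3, ATP6 and ND1 were -0.054, -0.021 and -0.067. With the replicate number as a block, the group estimate of ND1 was -0.00043 and 0 genes passed in either comparison; the correlation of deviations between pools that share a number lay between -0.28 and 0.42, and every pool but those numbered 3 correlated best with another number, so no pairing was assumed. Leaving out 1 pool at a time, group estimates ranged from -0.029 to 0.217 for COX1, -0.177 to 0.046 for COX2, -0.085 to 0.297 for COX3, 0.026 to 0.413 for CYTB, -0.048 to 0.356 for ATP6 and -0.158 to 0.178 for ND1. Slopes ranged from -0.070 to 0.078 for COX1, -0.119 to 0.020 for COX2, -0.103 to 0.111 for COX3, -0.045 to 0.173 for CYTB, -0.078 to 0.144 for ATP6 and -0.116 to 0.075 for ND1. Scaling by DESeq2 size factors, by library totals and by TMM without the 6 genes kept every sign. The difference in summed share, 0.27 percentage points, was 0.17 with all reads in the denominator and 0.268 with counts without regard to strand. With 1 pool removed it ranged from -0.04 (without supplemented pool 4, a change of sign) to 0.55. Without supplemented pool 5 or supplemented pool 2 (0.55 and 0.35) it exceeded the SD of the 5 controls, 0.295. The same held without control pool 5 or control pool 1 (0.35 and 0.301). Counting error was small beside the spread between pools.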
